A study of Mus musculus with 2 samples.

Results

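The 8 genes of secreted Wnt antagonists considered here were followed through the cell types of the mouse temporomandibular joint (TMJ): *Sfrp1*, *Sfrp2*, *Sfrp4*, *Sfrp5*, *Frzb*, *Dkk2*, *Dkk3* and *Wif1*. They were chosen by name, and 8 of 8 were found by gene symbol among the 32285 genes counted in each library. The data were 2 single-cell RNA sequencing libraries of wild-type C57BL/6 mice (C57BL/6J in the methods), 1 from TMJs injected with PBS (saline buffer) and 1 from TMJs injected with CFA (complete Freund's adjuvant), an oil emulsion of killed mycobacteria that inflames the joint. The labels give an age of 8–10 weeks. In the methods the mice are female and were injected on both sides with 10 µL of buffer or of 5 mg/mL CFA at 8 weeks of age and joints were collected 3 weeks later, with n = 3 given in the methods and 1 library per condition, in which mice cannot be told apart. Cartilage, bone, disc, ligament and muscle of the joint region were digested together, and CD45+ leukocytes were then removed on magnetic beads, so shares of immune cells do not describe the joint. The labels and the methods give different enzyme mixes and kit versions. With 1 library per condition there is no replicate check, so no p-value was computed between PBS and CFA, and mouse, day, digestion and library cannot be told apart from treatment.

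Wnt ligands are secreted glycoproteins that bind Frizzled receptors and the coreceptors LRP5 and LRP6, and in the canonical pathway this stabilizes beta-catenin, which acts with TCF/LEF factors in the nucleus. The secreted frizzled-related proteins (SFRPs) carry a cysteine-rich domain like that of Frizzled and bind Wnts outside the cell. *Sfrp1*, *Sfrp2* and *Sfrp5* form one branch of this family, while *Sfrp4* and *Frzb* (also known as *Sfrp3*) belong to another. *Wif1* encodes Wnt inhibitory factor 1, which binds Wnts through a domain of its own, the WIF domain. The Dickkopf protein DKK2 acts on the coreceptor LRP6 and can inhibit or activate the pathway depending on context, and DKK3 is a divergent Dickkopf protein whose effect on Wnt signalling is less clear. In joints these antagonists are known from cartilage, where *Frzb* was named for its part in skeletal development, and from fibroblasts of connective tissue.

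On the GRCm38 build, *Sfrp1* spans 23411502 to 23449632 on the plus strand of chromosome 8, and *Sfrp4* spans 19623104 to 19632994 on the plus strand of chromosome 13. *Sfrp2* (83766321 to 83774316) and *Dkk2* (132085292 to 132180304) both lie on the plus strand of chromosome 3. *Sfrp5* runs on the minus strand of chromosome 19 from 42202252 down to 42197971, *Frzb* on the minus strand of chromosome 2 from 80447625 down to 80411970, and *Dkk3* on the minus strand of chromosome 7 from 112159057 down to 112116017. *Wif1* spans 121033960 to 121100650 on the plus strand of chromosome 10.

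Cells were kept with at least 500 genes, at most 10% mitochondrial and at most 1% hemoglobin counts. The counts are unique molecular identifiers (UMIs), each of which stands for 1 captured RNA molecule. This left 2667 PBS cells with a median of 7022 UMIs and 4014 CFA cells with a median of 6509.5 UMIs, and 2 barcode sequences were shared by kept cells of both libraries. The hemoglobin limit removed 3178 PBS and 339 CFA cells, and 20.7% of all PBS UMIs and 7.89% of all CFA UMIs were hemoglobin. The 37 clusters were named from marker genes, with the antagonists left out of the clustered counts, and 5 clusters stayed unnamed. Levels are given per 1000000 UMIs (CPM), summed over the cells of a class, with exact 95% Poisson intervals, and shares of cells with exact 95% Clopper-Pearson intervals. These intervals cover counting error only and treat UMIs as independent, which they are not where a few cells hold most of them.

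Most antagonist RNA lay in connective tissue, skeletal and Schwann-like cells. Fibroblast-like cells held 76.5% of *Sfrp1* UMIs in PBS and 83.8% in CFA, and 83.5% and 82.5% of *Sfrp4* UMIs. The same class held 68.4% and 62.5% of *Sfrp2* UMIs and 60.1% and 49.4% of *Dkk2* UMIs. *Sfrp5* came mainly from Schwann-like cells, with 75.5% and 92.4% of its UMIs, and *Frzb* was shared between Schwann-like cells (59.0% and 36.1%) and the *Col2a1* cluster of chondrocyte-like cells (11.9% and 34.9%). *Wif1* stood high in chondrocyte-like and osteoblast- or osteocyte-like cells, and *Dkk3* was spread over fibroblast-, tenocyte-, chondrocyte- and Schwann-like cells.

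**Figure D1:**
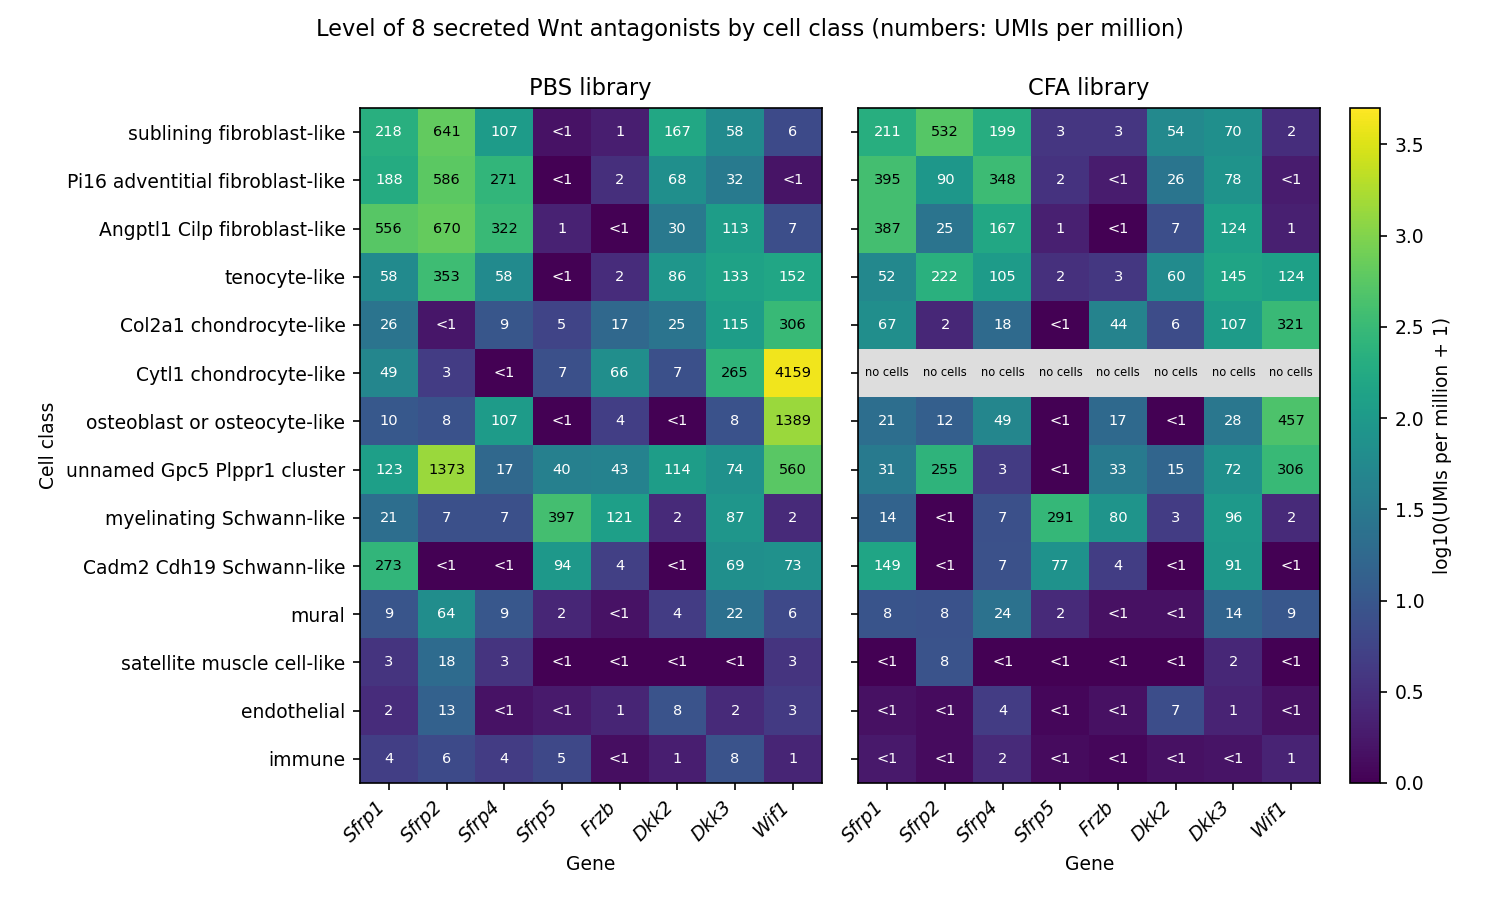
Level of the 8 antagonists (columns) in 14 cell classes or clusters (rows) in the PBS library (left) and the CFA library (right). Colour gives log10 of CPM plus 1, and the number in each field is the level in CPM. *Sfrp5* is high in the Schwann-like rows, *Wif1* in the chondrocyte- and bone-like rows, and the highest value in the immune and endothelial rows is 12.9 CPM.

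Immune and endothelial cells served as the background for these values. In all immune-like cells (337 PBS and 1212 CFA cells, median depths of 5009 and 11962 UMIs), the share of cells with a UMI of an antagonist was highest for *Dkk3* in PBS at 3.56%, and no antagonist exceeded 7.84 CPM. In endothelial-like cells (698 and 944 cells, median depths of 5648 and 4745 UMIs), 1.15% of PBS cells and 0.212% of CFA cells had a *Sfrp2* UMI. Their *Sfrp2* level of 12.9 CPM in PBS came from 74 UMIs in 8 cells, of which 1 cell held 38. It was not even over these cells, as 70 of the 74 UMIs lay in venular endothelial-like cells. In CFA the *Sfrp2* level of endothelial-like cells was 0.300 CPM, from 2 UMIs.

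The fibroblast-like cells fell into 4 clusters. Sublining fibroblast-like cells (211 PBS and 153 CFA cells) were named after the loose tissue under the synovial surface. The name rests on *Col15a1*, *Smoc2* and *Apod*, the minimum of 3 markers. *Thy1*, after which the paper names its sublining fibroblasts, was on the list and did not pass. The *Pi16* adventitial fibroblast-like cluster (137 and 164 cells) carried genes of fibroblasts that lie around vessels, and another cluster (123 and 56 cells) was led by *Angptl1*, *Cilp* and *Myoc* and matched no subtype list. A cluster of 29 PBS and 6 CFA cells matched the lining fibroblast markers (*Prg4*, *Hbegf*, *Gpr1*), although its summed level of 6 general fibroblast markers was 4530 and 6884 CPM against 15478 to 38875 CPM in the other 3 clusters.

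*Sfrp2* and *Dkk2* were lower in CFA fibroblast-like cells than in PBS ones, and *Sfrp1*, *Sfrp4* and *Dkk3* were higher by less than 2-fold. *Sfrp2* counted 3352 UMIs in 500 PBS cells (574 CPM, interval 555 to 594) and 1079 UMIs in 379 CFA cells (188 CPM, 177 to 199), a CFA to PBS ratio of 0.327 (95% interval 0.305 to 0.351). *Dkk2* went from 83.4 CPM (76.1 to 91.1) to 29.2 CPM (24.99 to 34.0), a ratio of 0.351 (0.293 to 0.419). The level of *Sfrp1* was 297 CPM in PBS and 354 CPM in CFA, with a ratio of 1.19 (1.12 to 1.27). *Sfrp4* stood at 215 and 274 CPM (ratio 1.28, 1.19 to 1.38), and *Dkk3* at 61.6 and 82.2 CPM (ratio 1.33, 1.16 to 1.53). The other 3 genes were near 0, with *Wif1* at 3.94 and 1.22 CPM, *Frzb* at 1.20 and 1.22 CPM (7 UMIs in each library) and *Sfrp5* at 0.514 and 2.26 CPM. Of the 8 genes, 5 had at least 50 UMIs in this class and could be called, where called means at least 2-fold apart. Of these 5, 2 were called lower, against 3.68% of the 11368 genes with that many UMIs, and 0 were called higher, against 6.41%. The median ratio of all those genes was 0.9997.

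The depth of the fibroblast-like cells was close in both libraries, with medians of 11481.5 UMIs in PBS and 12958 in CFA, and so was their mitochondrial share (2.48% and 2.32%). Markers of other cell types moved beside these ratios. The summed level of 7 endothelial markers in fibroblast-like cells was 160 CPM in PBS and 20.7 CPM in CFA, that of 9 neutrophil markers 480 and 155 CPM, that of 6 erythroid markers 581 and 211 CPM, and that of 5 macrophage markers 3.94 and 43.5 CPM. No marker of these 4 lists was at 0 in PBS, and 1 endothelial marker was at 0 in CFA. Their part in the antagonist ratios was not tested.

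The promoters of *Sfrp2* and *Dkk2*, which were both called lower here, are shown with that of *Sfrp5*, the antagonist found mainly in Schwann-like cells. The sequences come from RefSeq on GRCm38.p6 and cover the 250 bases before the start site. They are given for those of the 5 genes with an entry whose RefSeq and GENCODE start sites were the same base. Capitals mark matches on either strand to a TATA box (TATAAA) or to a GC box (GGGCGG). Also searched was the TCF/LEF core, whose letters are CTTTGA, and none of these matches overlapped another.
Sfrp2, plus strand, chr3:83766071-83766320: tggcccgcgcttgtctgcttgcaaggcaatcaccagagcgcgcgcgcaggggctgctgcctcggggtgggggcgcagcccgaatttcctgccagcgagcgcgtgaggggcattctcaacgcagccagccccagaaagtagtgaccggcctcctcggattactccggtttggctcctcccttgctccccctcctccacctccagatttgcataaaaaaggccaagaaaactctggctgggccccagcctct
Dkk2, plus strand, chr3:132085042-132085291: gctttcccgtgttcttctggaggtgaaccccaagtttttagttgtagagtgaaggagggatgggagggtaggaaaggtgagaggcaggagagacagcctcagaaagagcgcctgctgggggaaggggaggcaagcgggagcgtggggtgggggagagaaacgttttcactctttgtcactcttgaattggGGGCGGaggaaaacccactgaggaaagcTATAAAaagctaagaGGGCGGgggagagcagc
Sfrp5, minus strand, chr19:42202253-42202502: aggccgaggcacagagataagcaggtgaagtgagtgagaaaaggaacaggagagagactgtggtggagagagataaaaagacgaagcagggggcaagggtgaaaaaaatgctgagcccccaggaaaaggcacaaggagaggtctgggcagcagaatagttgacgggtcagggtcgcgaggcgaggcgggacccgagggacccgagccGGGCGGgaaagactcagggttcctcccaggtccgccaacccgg
The *Dkk2* window held 1 TATA box and 2 GC box matches, the *Sfrp5* window 1 GC box match, and the *Sfrp2* window none of the 3 motifs. Among 32851 promoters of the same length, 12.4% held the TATA box, 32.7% the GC box and 13.8% the TCF/LEF core. A match is a string of letters and says nothing of binding.

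*Sfrp2* differed in its ratio among the 3 larger fibroblast-like clusters. It was 641 CPM in PBS and 532 CPM in CFA in sublining fibroblast-like cells, a ratio of 0.829 (0.756 to 0.909). In the *Pi16* adventitial cluster it was 586 and 89.7 CPM, a ratio of 0.153 (0.134 to 0.174), and in the *Angptl1* *Cilp* cluster 670 and 25.4 CPM, a ratio of 0.0379 (0.0239 to 0.0571). In PBS the 3 clusters thus lay within 586 to 670 CPM, whereas in CFA the sublining cells stood far above the other 2. The PBS levels and the sublining ratio depended on how the clusters were drawn. At a coarser clustering resolution of 0.8 the PBS level was 244 CPM in sublining cells and 761 CPM in the *Pi16* cluster, so the likeness of the PBS clusters did not hold there. The sublining ratio was 2.12 at that resolution, and without the hemoglobin limit it was 0.332. That last setting gave no value for a *Pi16* cluster. Its sublining levels of 616 CPM in PBS and 205 CPM in CFA lay near those of all its fibroblast-like cells (557 and 196 CPM). The sublining label there need not cover the same cells. The summed level of 6 general fibroblast markers in the sublining cluster was 29452 CPM in PBS and 15478 CPM in CFA, and its part in these ratios was not tested. In the *Pi16* cluster the alternatives gave 0.127 to 0.203.

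**Figure D2:**
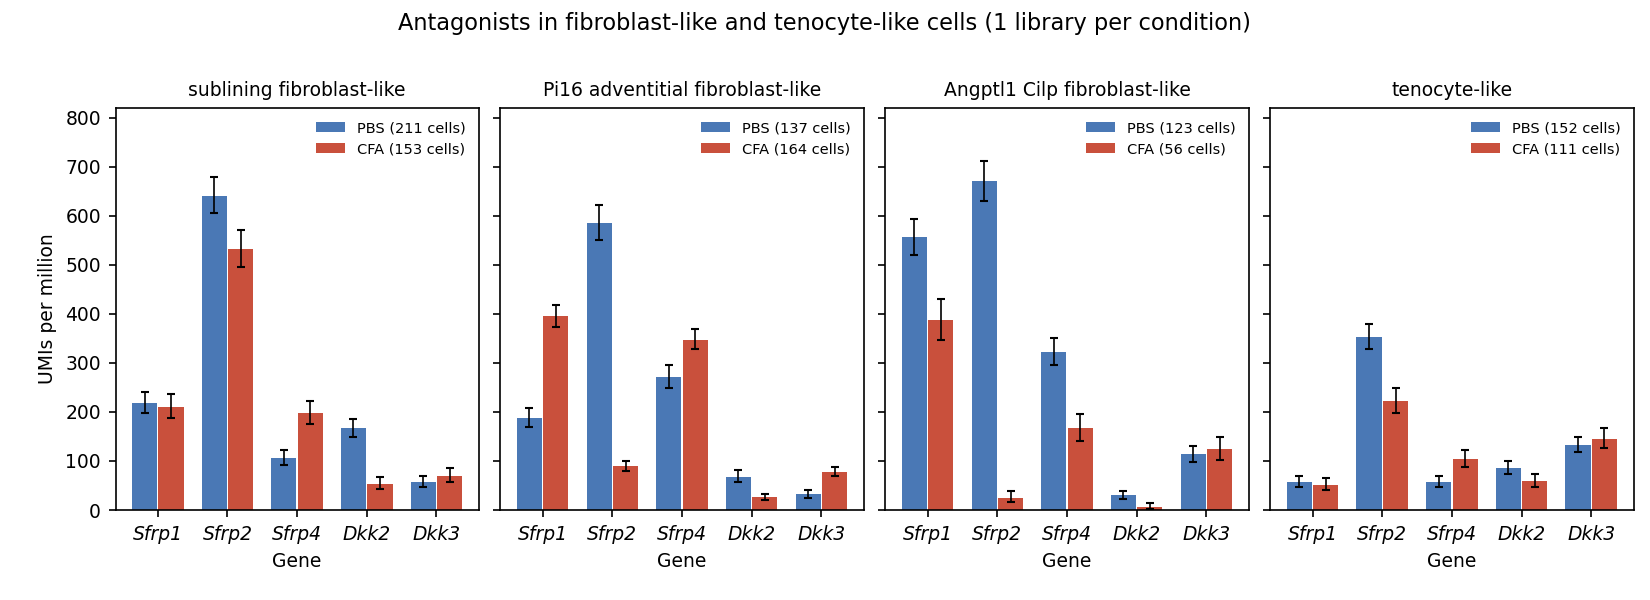
Levels of 5 antagonists in CPM (vertical axis, starting at 0) in 3 fibroblast-like clusters and in tenocyte-like cells, for the PBS library (blue) and the CFA library (red), with 95% Poisson intervals as bars. The *Sfrp2* bars for CFA are low in the *Pi16* and *Angptl1* *Cilp* clusters, at 89.7 and 25.4 CPM, and stay at 532 in the sublining cluster.

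A few cells held most of the *Sfrp2* RNA. In PBS sublining fibroblast-like cells 67 of 211 cells had a *Sfrp2* UMI, the median of these cells was 6 UMIs and the highest cell had 162, and the top 21 cells held 80.6% of the UMIs. The top 14 cells held 74.8% in the *Pi16* cluster, where 1 cell had 240 UMIs, and the top 12 cells held 82.6% in the *Angptl1* *Cilp* cluster, where 1 cell had 178. For *Dkk3* the same numbers of PBS cells held 51.4%, 58.6% and 36.8% in the 3 clusters, so its RNA was spread more evenly over cells.

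The share of cells with *Sfrp2* moved in the same direction as the level. In the *Pi16* cluster 74 of 137 PBS cells (54.0%, interval 45.3% to 62.6%) and 44 of 164 CFA cells (26.8%, 20.2% to 34.3%) had a UMI. In the *Angptl1* *Cilp* cluster the counts were 45 of 123 (36.6%, 28.1% to 45.7%) and 4 of 56 (7.14%, 1.98% to 17.3%). In the sublining cluster they were 31.8% and 24.8%, with overlapping intervals. When each cell was thinned to 1000 UMIs, so that depth was equal, the shares were 22.6% and 7.93% in the *Pi16* cluster, 22.0% and 3.57% in the *Angptl1* *Cilp* cluster, and 20.3% and 15.4% in the sublining cluster. Median depths were 13398 and 18138 UMIs in the *Pi16* cluster and 12470 and 15123 in the *Angptl1* *Cilp* cluster, higher in CFA, but 9051 and 6527 in the sublining cluster, lower in CFA. Thinning left out 4 PBS and 10 CFA sublining cells. Endothelial-like cells thinned in the same way had a *Sfrp2* UMI in 0.287% (PBS) and 0% (CFA) of cells. The level within cells that had a UMI was 1063 CPM in PBS and 325 CPM in CFA for the *Pi16* cluster and 1622 and 1552 CPM for the sublining cluster.

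**Figure D3:**
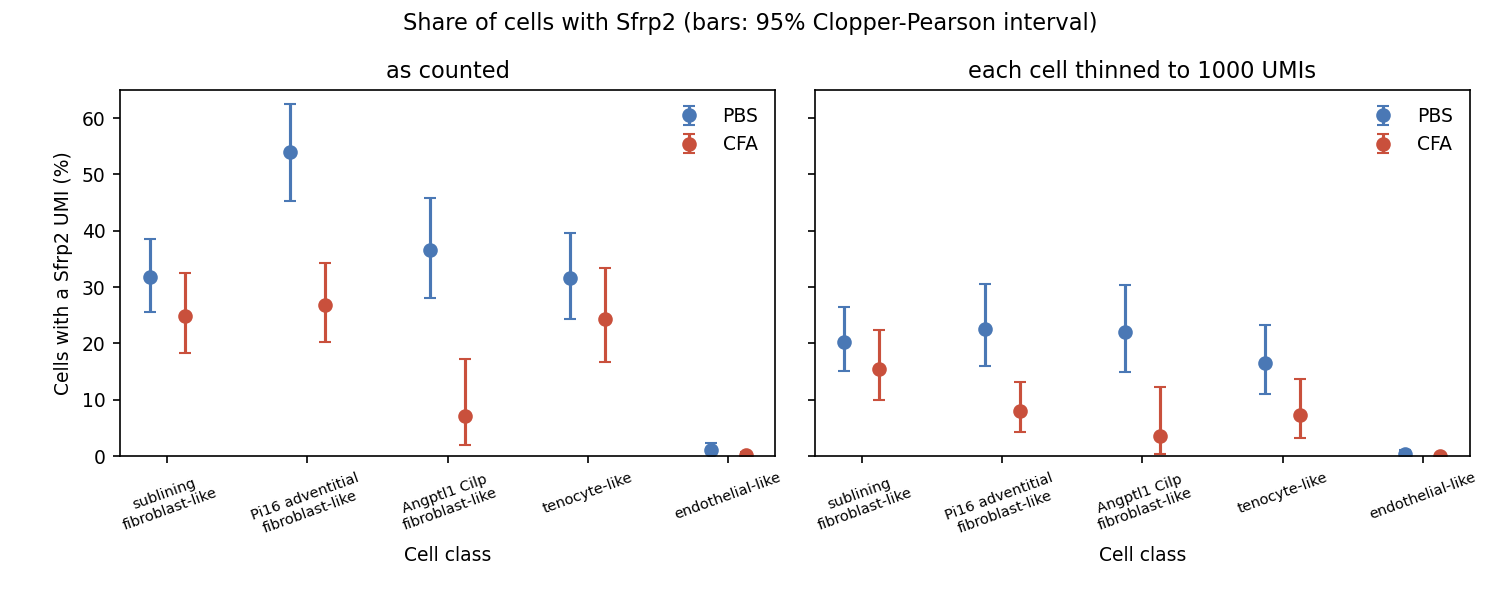
Percent of cells with at least 1 *Sfrp2* UMI (vertical axis) in 5 cell classes, as counted (left) and after thinning each cell to 1000 UMIs (right), for PBS (blue) and CFA (red), with 95% Clopper-Pearson intervals. The intervals of the 2 libraries separate in the *Pi16* cluster in both panels (54.0% and 26.8% as counted) and overlap in the sublining and tenocyte-like cells.

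*Dkk2* was lower in CFA in each of the 3 clusters. It was 167 and 53.7 CPM in sublining cells (ratio 0.322, 0.248 to 0.414), 67.7 and 26.0 CPM in the *Pi16* cluster (0.384, 0.288 to 0.510) and 29.9 and 6.62 CPM in the *Angptl1* *Cilp* cluster (0.221, 0.0774 to 0.518). Its cells were few. In PBS sublining cells 37 of 211 cells held 313 UMIs, 119 of them in 1 cell, and in CFA 8 of 153 cells held 77. With the highest cell of each library left out, the ratio in all fibroblast-like cells was 0.385 and that in the sublining cluster 0.369. At resolution 0.8 the sublining ratio was 0.699. After thinning, 5.04% of PBS and 2.98% of CFA fibroblast-like cells had a *Dkk2* UMI (intervals 3.29% to 7.35% and 1.497% to 5.27%), so a difference in share was not detectable at that depth.

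*Sfrp1* and *Dkk3* were called higher in CFA in the *Pi16* cluster. *Sfrp1* was 188 CPM in PBS and 395 CPM in CFA there, a ratio of 2.10 (1.87 to 2.38), with a UMI in 48.2% and 79.3% of cells and, after thinning, in 12.4% and 31.7%. *Dkk3* was 31.7 and 78.4 CPM, a ratio of 2.47 (1.85 to 3.35), with 27.7% and 50% of cells positive, and 2.92% and 6.71% after thinning, whose intervals overlapped. At the coarser resolution of 0.8 the ratios in the cluster of that name were 1.09 and 1.26, and under the other alternatives that gave this label both stayed at 2.01 or more. In the *Angptl1* *Cilp* cluster *Sfrp1* was lower, at 556 and 387 CPM (ratio 0.696, 0.614 to 0.789), with 65.9% and 66.1% of cells positive. In sublining cells it was 218 and 211 CPM (ratio 0.966, 0.830 to 1.12). *Dkk3* in these other 2 clusters had ratios of 1.09 and 1.20, with intervals that include 1.

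*Sfrp4*, whose protein is also known for a role in bone, was 107 and 199 CPM in sublining cells (ratio 1.86, 1.54 to 2.23), 271 and 348 CPM in the *Pi16* cluster (1.28, 1.15 to 1.43) and 322 and 167 CPM in the *Angptl1* *Cilp* cluster (0.517, 0.428 to 0.621). Its direction thus differed between clusters, and none of the 3 ratios passed 2-fold. The sublining ratio was 1.19 without the hemoglobin limit and 2.27 with the antagonists kept in the clustered counts. Without that limit the ratio in all fibroblast-like cells was 1.24, and the sublining label need not cover the same cells. In the *Angptl1* *Cilp* cluster 46.3% of PBS and 50% of CFA cells had a UMI, with 17.1% and 5.36% after thinning.

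In the *Pi16* cluster 2 of 5 antagonists with enough UMIs were called higher, against 6.5% of 8886 genes, and 2 lower, against 4.05%. The *Angptl1* *Cilp* cluster had 0 of 5 called higher, against 3.28% of 6767 genes, and 2 of 5 lower, against 3.71%. In the sublining cluster 0 of 5 were called higher, against 8.72% of 8244 genes, and 1 of 5 lower, against 3.83%. 

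Lining fibroblast-like cells had *Sfrp1* at 167 CPM in 29 PBS cells (134 to 205) and at 680 CPM in 6 CFA cells (548 to 834), of which 1 held 55 of 92 UMIs. *Sfrp4* was 71.9 CPM in the PBS cells. *Sfrp2* had 1 UMI in the PBS cells and 0 in the CFA cells, where 3 counts would be 22.2 CPM. These cells were too few for a comparison between conditions.

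Tenocyte-like cells, named from tendon genes such as *Tnmd* and *Scx*, expressed 6 of the 8 antagonists, and none of these 6 changed by 2-fold. *Sfrp2* was 353 CPM in 152 PBS cells and 222 CPM in 111 CFA cells (ratio 0.630, 0.549 to 0.722). *Sfrp4* went the other way, from 57.6 to 105 CPM (1.82, 1.41 to 2.33), although 1 CFA cell held 80 of its 142 UMIs, and without the highest cell of each library its ratio was 1.0003. *Dkk3* (133 and 145 CPM), *Wif1* (152 and 124 CPM), *Dkk2* (86.4 and 59.7 CPM) and *Sfrp1* (57.6 and 51.6 CPM) had ratios of 1.09, 0.813, 0.690 and 0.895. These values depended on how cells were assigned. With each cell classed on its own in place of clusters, the ratios were 0.379 for *Sfrp2*, 0.138 for *Sfrp4*, 0.427 for *Dkk3* and 0.0475 for *Wif1*. The *Sfrp4* ratio was instead 3.25 without the hemoglobin limit and 2.27 with log-normalized counts. For *Wif1* these 2 settings gave 0.201 and 0.462, and for *Sfrp1* log-normalized counts gave 1.76. Of all 7893 genes with enough UMIs in this class, 2.83% were called higher and 3.55% lower. The summed level of 9 neutrophil markers in these cells was 77.3 CPM in PBS and 4412 CPM in CFA, and its part in the ratios was not tested.

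*Wif1* had its highest levels in cells of cartilage and bone. In PBS, 30 chondrocyte-like cells led by *Cytl1* and *Mia* held 1191 *Wif1* UMIs, or 4159 CPM (3926 to 4402), and 26 of these 30 cells had a UMI. The CFA library had no cell in this cluster. The other chondrocyte-like cluster, led by *Col2a1* and *Snorc*, had *Wif1* at 306 CPM in 58 PBS cells and at 321 CPM in 86 CFA cells, a ratio of 1.05 (0.926 to 1.19). The 2 clusters pooled gave 935 and 321 CPM and a ratio of 0.343 (0.312 to 0.377), so that pooled difference was not seen within the cluster that both libraries shared. Of 9 alternatives 6 left the pooled ratio under 1, where log-normalized counts gave the highest of these, 0.555, and classing cells one by one the lowest, 0.107. In the other 3 it was over 1, at 1.28 without the hemoglobin limit. It was 1.07 with at least 1000 genes per cell, and 1.07 with the antagonists kept in the clustered counts. The pooled PBS level in these 3 was 250, 299 and 299 CPM in that order, and the CFA level 320, 321 and 321 CPM. These PBS levels lay nearer to the 306 CPM of the *Col2a1* cluster than to 935 CPM. The cause, including whether the *Cytl1* cells had left the class, was not tested. Median depth in the *Col2a1* cluster was 21828 UMIs in PBS and 16334 in CFA.

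Osteoblast- or osteocyte-like cells, named from genes such as *Bglap* and *Phex*, had *Wif1* at 1389 CPM in 35 PBS cells (1290 to 1494) and at 457 CPM in 29 CFA cells (403 to 516). With 22 of 35 and 23 of 29 cells positive, the share was 62.9% and 79.3%, and after thinning 41.2% and 27.6%. One PBS cell held 191 of the 727 UMIs and the top 4 cells 66.2%. *Sfrp4* stood at 107 and 48.8 CPM in these cells. The ratios of 0.329 for *Wif1* and 0.456 for *Sfrp4* count as lower by the 2-fold rule. Both groups hold under 50 cells, so no share over all genes was computed to set beside them. Without the hemoglobin limit the *Wif1* ratio was 1.21 and the *Sfrp4* ratio 3.25.

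In the *Col2a1* cluster of chondrocyte-like cells *Frzb* was 17.0 CPM in PBS (25 UMIs in 10 cells) and 43.9 CPM in CFA (84 UMIs in 13 cells), a ratio of 2.58 (1.63 to 4.21), and 1 CFA cell held 27 UMIs. The share of cells with a UMI was 17.2% and 15.1%. Over both chondrocyte-like clusters the *Frzb* ratio was 1.75, and it ran from 0.687 with the highest doublet scores left out to 3.32 without the hemoglobin limit. *Sfrp1* was 25.9 and 66.9 CPM there (2.59, 1.79 to 3.82), with 1 CFA cell holding 55 of 128 UMIs and 20.7% and 26.7% of cells positive. Over both chondrocyte-like clusters its ratio was 2.26, and 1.83 with the highest cell of each library left out. It turned to 0.287 with log-normalized counts and to 0.0602 when cells were classed one by one, and was 4.02 with the highest doublet scores left out. For both genes the intervals of the levels separated while the shares of cells were close. *Dkk3* was 115 and 107 CPM (0.932, 0.756 to 1.15). *Dkk2* was 25.2 and 6.27 CPM, from 37 and 12 UMIs, under the minimum for a call. In this cluster 2 of 4 antagonists were called higher, against 4.45% of 7283 genes, and 0 of 4 lower, against 3.84%.

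**Figure D4:**
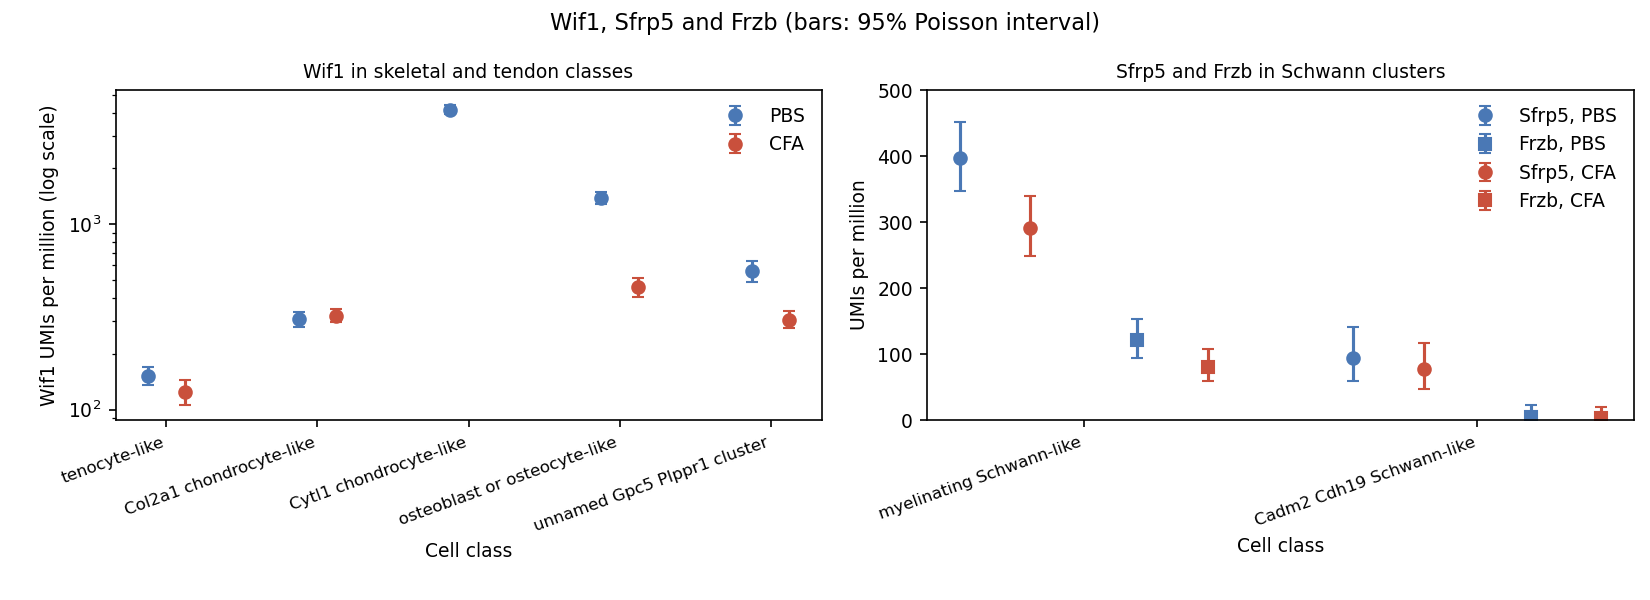
Left, *Wif1* in CPM (log scale) in tenocyte-like, chondrocyte-like and bone-like cells and in the unnamed *Gpc5* *Plppr1* cluster. Right, *Sfrp5* (circles) and *Frzb* (squares) in CPM in 2 Schwann-like clusters. PBS is blue, CFA is red and bars are 95% Poisson intervals. The *Cytl1* chondrocyte-like point at 4159 has no CFA counterpart, and the *Sfrp5* points of myelinating Schwann-like cells lie at 397 and 291.

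An unnamed cluster of 37 PBS and 85 CFA cells led by *Gpc5*, *Plppr1* and *Dok6* carried several antagonists. Its *Sfrp2* level of 1373 CPM in PBS (1263 to 1489) was above that of every named class of at least 30 cells, and in CFA it was 255 CPM. The PBS cells positive for *Sfrp2* made up 64.9% of this cluster and the CFA cells 22.4%, although the CFA cells had the higher median depth (12922 against 6912 UMIs). *Wif1* was 560 and 306 CPM and *Frzb* 42.7 and 32.6 CPM. *Sfrp5* had 17 UMIs in PBS, all in 1 cell, and none in CFA.

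*Sfrp5* and *Frzb* were found in Schwann-like cells, the glia that wrap peripheral axons. Beyond them *Sfrp5* was found in perineurial-like cells and *Frzb* in chondrocyte-like cells. In the Schwann-like class *Sfrp5* was 363 CPM in 307 PBS cells (333 to 394) and 395 CPM in 377 CFA cells (367 to 424). Its ratio there was 1.09 (0.974 to 1.22). The class includes a small cluster of nonmyelinating glia-like cells, 3 in PBS and 16 in CFA. Without them, an alternative chosen after seeing the data, *Sfrp5* was 353 and 307 CPM and the ratio 0.870 (0.766 to 0.987), so these cells turned its direction. In fibroblast-like cells of the same libraries it was 0.514 and 2.26 CPM. Within the class *Sfrp5* was 397 and 291 CPM in myelinating Schwann-like cells (ratio 0.735, 0.598 to 0.901) and 93.7 and 76.5 CPM in the *Cadm2* *Cdh19* cluster. Myelinating cells stood above the *Cadm2* *Cdh19* cluster beyond their intervals in both libraries. The median depth of myelinating cells was 3166 UMIs in PBS and 2525 in CFA. With *Sfrp5* UMIs in 55.8% and 35.1% of these cells as counted, thinning gave 29.5% and 17.9% (intervals 22.2% to 37.6% and 12.6% to 24.3%).

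A pair of small clusters had *Sfrp5* above the myelinating cells. Perineurial-like cells, which sheathe nerve bundles, had 1448 CPM in 13 PBS cells (1196 to 1736) and 813 CPM in 8 CFA cells (560 to 1142). Nonmyelinating glia-like cells had 775 CPM in 16 CFA cells (685 to 873) and 768 CPM in 3 PBS cells. That cluster held 34.2% of the *Sfrp5* UMIs of the CFA library.

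*Frzb* was 81.1 CPM in PBS and 46.9 CPM in CFA over all Schwann-like cells (ratio 0.577, 0.434 to 0.766), and the ratio was 0.655 without the nonmyelinating glia-like cells. It was 121 and 80.3 CPM in myelinating cells (0.662, 0.446 to 0.974), but under 5 CPM in the *Cadm2* *Cdh19* cluster. The share of Schwann-like cells with *Frzb* was 25.7% and 16.2% as counted and 8.70% and 4.95% after thinning, with overlapping intervals in the latter. *Sfrp1* showed the reverse order, at 273 and 149 CPM in the *Cadm2* *Cdh19* cluster and 20.8 and 14.0 CPM in myelinating cells. Over the class the *Sfrp1* ratio was 0.973, and 0.630 without the nonmyelinating glia-like cells. *Dkk3* was 64.1 and 67.9 CPM in the class (ratio 1.06, 0.806 to 1.39), but in the *Cadm2* *Cdh19* cluster of CFA all 25 of its UMIs came from 1 cell, as did all 18 *Wif1* UMIs there in PBS. None of the 4 antagonists with enough UMIs was called in Schwann-like cells, where 5.54% of 8215 genes were called higher and 1.73% lower.

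Mural-like cells, the pericytes and smooth muscle cells of vessels, held low levels. *Sfrp2* was 64.1 CPM in 180 PBS cells and 7.61 CPM in 221 CFA cells (ratio 0.119, 0.0670 to 0.198), but 12 PBS cells held the 127 UMIs and 1 of them held 62. *Sfrp4* was 9.09 and 24.2 CPM (ratio 2.66, 1.54 to 4.82), and in the pericyte-like cluster 17.1 and 75.5 CPM, from 6 of 82 and 9 of 66 cells. Of 3 antagonists with enough UMIs 1 was thus called higher, against 2.15% of 8558 genes, and 1 lower, against 3.9%. *Dkk2* was found in arterial endothelial-like cells at 14.99 CPM in PBS and 24.97 CPM in CFA, in 3.73% and 6.25% of cells. Venular endothelial-like cells had it at 18.7 CPM (28 UMIs) and 5.30 CPM (15 UMIs), in 7 cells of each library. Their intervals overlapped those of arterial cells in PBS (12.4 to 27.1 and 8.57 to 24.3 CPM) and not in CFA (2.97 to 8.74 and 16.7 to 35.9 CPM). Capillary endothelial-like cells had 0 *Dkk2* UMIs in either library. *Sfrp2* was called lower in endothelial-like cells, at 12.9 CPM in PBS and 0.300 CPM in CFA (ratio 0.0232, 0.00275 to 0.0867). In venular endothelial-like cells it was 46.8 and 0.353 CPM. Of 2 antagonists with enough UMIs in endothelial-like cells 1 was thus called lower, against 3.75% of 10817 genes, and 0 higher, against 3.93%. In erythroid-like cells of PBS *Sfrp1* reached 51.8 CPM, from 153 UMIs in 14 of 90 cells whose median depth was 18430.5 UMIs.

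**Figure D5:**
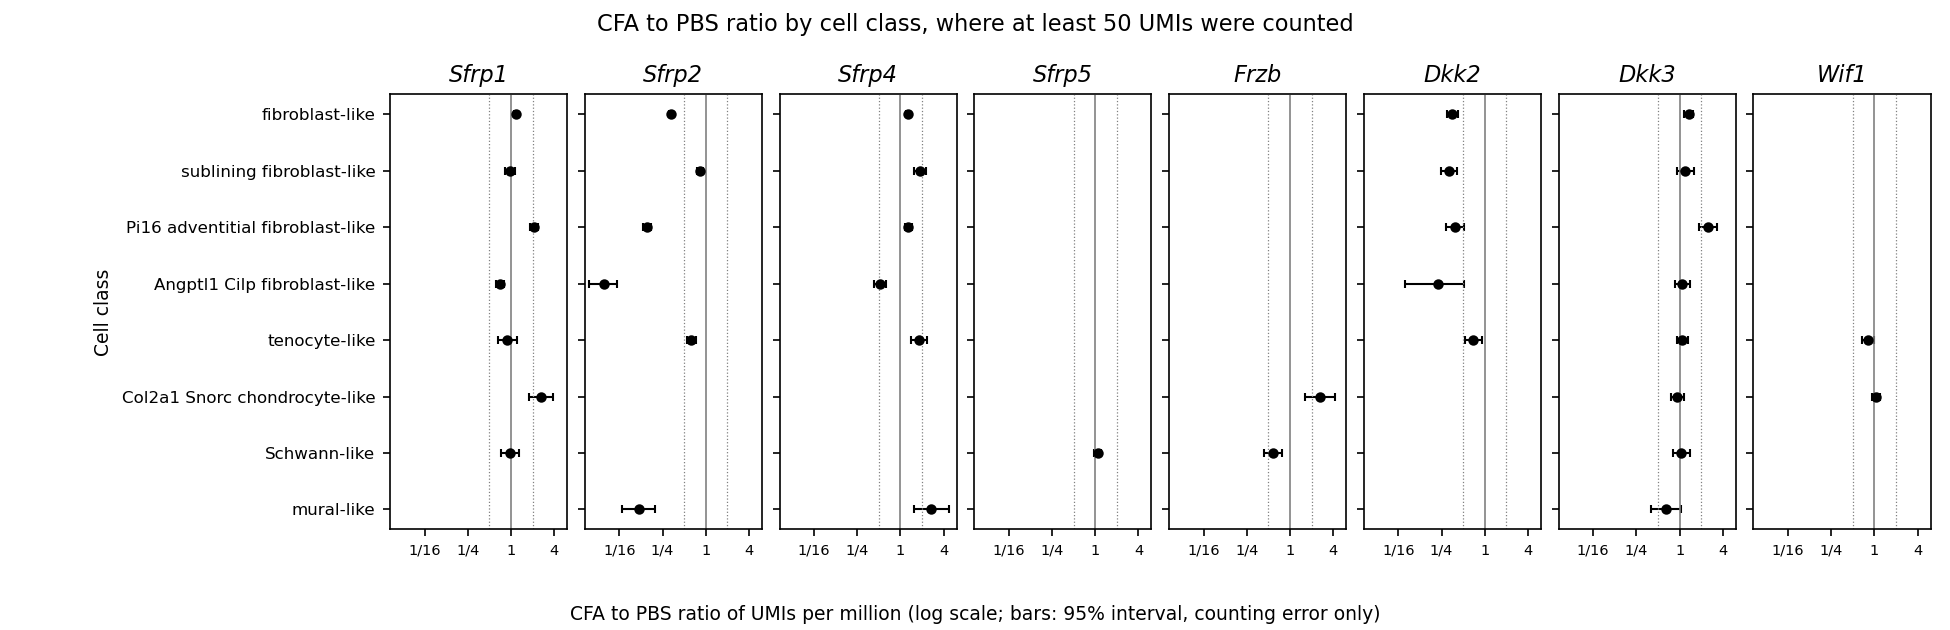
CFA to PBS ratio of CPM (horizontal axis, log scale) for each antagonist (panels) in 8 cell classes or clusters (rows), with 95% intervals for counting error. Points are shown where at least 50 UMIs were counted over both libraries, the solid line marks a ratio of 1 and the dotted lines 2-fold. The *Sfrp2* points run from 0.0379 in the *Angptl1* *Cilp* cluster to 0.829 in the sublining cluster.

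The order of the classes was read for each antagonist over classes of at least 30 cells. For *Sfrp1* in PBS the *Angptl1* *Cilp* fibroblast-like cluster (520 to 594 CPM) stood apart at the top, while the *Cadm2* *Cdh19* Schwann-like and the sublining cells that followed overlapped in their intervals, and so did the sublining and *Pi16* cells. In CFA the *Pi16* (374 to 417 CPM) and *Angptl1* *Cilp* (348 to 430 CPM) clusters led and overlapped. *Sfrp4* had the *Angptl1* *Cilp* and *Pi16* clusters at the top in PBS with touching intervals (295 to 351 and 248 to 296 CPM), and the *Pi16* cluster alone in CFA. For *Dkk2* the sublining cells led in PBS (149 to 186 CPM) and overlapped the unnamed *Gpc5* *Plppr1* cluster (83.9 to 151 CPM). In CFA the tenocyte-like and sublining cells overlapped at the top (47.4 to 74.2 and 42.4 to 67.1 CPM). *Dkk3* was highest in chondrocyte-, tenocyte- and *Angptl1* *Cilp* fibroblast-like cells in both libraries, with neighbours in that order overlapping.

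At a depth of 1000 UMIs per cell a minority of the cells of each class showed more than 1 antagonist. Thinning discards UMIs, so shares as counted would be higher, and they are not given here. After thinning to 1000 UMIs, 61.0% of 123 PBS and 39.3% of 56 CFA cells of the *Angptl1* *Cilp* cluster had a UMI of at least 1 of the 8 genes, and 14.6% and 8.93% of at least 2. In the *Pi16* cluster 43.1% and 47.6% had at least 1 and 13.1% and 19.5% at least 2. In sublining cells 41.5% and 35.0% had at least 1, compared with 1.004% and 0.742% of endothelial-like cells. Co-occurrence was compared in cells thinned to 2000 UMIs. The 3 larger fibroblast-like clusters and the tenocyte-like cells of both libraries gave 8 values per pair. *Sfrp1* was found more often in cells with *Sfrp2* than in cells without it in 7 of 8, for example in 17 of 25 PBS cells of the *Angptl1* *Cilp* cluster (68.0%) against 27 of 97 (27.8%). The exception was PBS tenocyte-like cells, at 7.41% against 11.3%. *Sfrp4* was more frequent beside *Sfrp2* in 4 of 8. In sublining cells it was in 22.2% of PBS cells with *Sfrp2* and 6.99% of those without, and in 26.7% and 8.74% in CFA. In PBS cells of the *Pi16* cluster the order was the reverse, at 13.9% and 21.8%, and in the *Angptl1* *Cilp* cluster *Sfrp4* was in 23.7% of PBS cells without *Sfrp2* and in 5 of 25 with it. For *Dkk2* the count was 5 of 8, and in sublining cells it was 13.3% against 7.69% in PBS and 3.33% against 4.85% in CFA, where only 1 cell had both.

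The genes whose levels over 20 named classes were most like each antagonist were ranked by the lower of the 2 Pearson correlations, 1 per library. The classes of a library share its depth and background, and the correlations describe these 20 points only. *Sfrp5* was closest to *Nrcam*, *Gal3st1* and *Gjc3*, genes of glial adhesion, myelin lipid synthesis and gap junctions, with lower r values of 0.980, 0.979 and 0.979. *Frzb* was closest to *Ncmap* (0.895), *Kcnk1* and *Dusp15*, and *Wif1* to *Chad* (0.926), *Acan* and *Ibsp*, of which *Acan* encodes the aggrecan core protein of cartilage. *Sfrp2* was nearest to *Frmpd4* (0.898), *Fbln1* and *Nox4*, *Sfrp4* to *Fbln1* (0.929), *Frmpd4* and *Sulf2*, and *Sfrp1* to *Sema3c* (0.919), *Ephb2* and *Ahnak2*. *Dkk3* was nearest to *Sgcd* (0.931), *Kdelr3* and *Enpp1*, and *Dkk2* to *Mfap4* (0.830), *Prr16* and *Cpxm1*. *Sema3c*, *Acan* and *Ibsp* were among the markers that named the clusters. Between antagonists, *Sfrp2* and *Sfrp4* had r values of 0.901 in PBS and 0.854 in CFA, *Sfrp5* and *Frzb* 0.868 and 0.774, and *Sfrp5* and *Sfrp2* −0.323 and −0.173.

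The other genes of the Wnt pathway were read from a list of 67 genes. In fibroblast-like cells 38 of them had at least 50 UMIs, of which 0 were called higher, against 6.41% of all genes, and 4 lower, against 3.68%, and the median ratio of the 38 was 0.929 against 0.9997 over all genes. *Lgr5*, a receptor for R-spondins, was called lower at 95.4 and 21.6 CPM (ratio 0.226, 0.185 to 0.275), while its relative *Lgr4* was 52.2 and 45.6 CPM and the R-spondin *Rspo2* 99.6 and 138 CPM. The other 3 called lower were the ligands *Wnt2* (14.2 and 4.53 CPM) and *Wnt5a* (41.8 and 18.8 CPM) and the pathway target *Nkd1* (24.8 and 8.53 CPM), which are named because they were called. The other targets that could be read were under 2-fold, with *Lef1* at 8.56 and 15.1 CPM (ratio 1.77), *Axin2* at 14.0 and 11.3, *Nkd2* at 11.8 and 10.4, *Ccnd1* at 30.5 and 28.6 and *Myc* at 31.5 and 32.2 CPM. Among 16 receptors and coreceptors 14 could be read and none was called. *Ror1*, a receptor for WNT5A, was 184 and 343 CPM (ratio 1.87), *Fzd2* 62.0 and 47.7, *Fzd4* 64.7 and 59.5, *Lrp6* 166 and 163, *Ror2* 111 and 108 and *Ryk* 121 and 143 CPM. *Wls*, which carries Wnts to the cell surface, was 170 and 179 CPM. Of the 15 further antagonists of the list 5 could be read and none was called, with *Igfbp4* at 1284 and 2021 CPM, *Kremen1* at 52.6 and 59.4 CPM and *Trabd2b* at 113 and 86.5 CPM.

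In the other classes the genes of the same list that are named with ratios are those that were called. In tenocyte-like cells 1 of 26 genes was called higher, against 2.83% of all genes, and 3 lower, against 3.55%. The higher gene was *Ror1* (ratio 2.86), and the lower ones were *Rspo2*, *Lgr5* and *Nkd1* (0.463, 0.239 and 0.411). In the pooled chondrocyte-like cells 1 of 23 was called higher, against 3.14% of all genes, and 4 lower, against 4.76%. The higher gene was again *Ror1* (3.12). The lower ones were the receptor *Fzd9* (0.310), the target *Tcf7* (0.459) and the antagonists *Notum* (0.0667) and *Trabd2b* (0.466). The pool includes the *Cytl1* cluster, which had 30 PBS and 0 CFA cells and *Fzd9* among its leading genes. Its part in these ratios was not tested, and ratios of the list within the *Col2a1* cluster are not given here. In endothelial-like cells 3 of 21 were called higher, against 3.93% of all genes, namely *Lef1* (2.29), *Myc* (2.20) and *Apcdd1* (2.71), and 1 lower, against 3.75%, the ligand *Wnt5b* (0.485). In Schwann-like cells 3 of 18 were called higher, against 5.54% of all genes, and 0 lower, against 1.73%. *Lgr5* went there from 7.85 to 81.9 CPM (ratio 10.4, 5.80 to 20.6), opposite to fibroblast-like cells, but without the nonmyelinating glia-like cells it was 6.03 and 13.9 CPM from 9 and 21 UMIs, too few for a call. *Wnt6* had a ratio of 3.03, and 2.08 without those cells, and the coreceptor *Lrp5* 2.16. These opposite directions of *Lgr5* between classes were not tested.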

How the data were processed

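Single-cell RNA sequencing was performed on 2 libraries (10x Genomics, 3' chemistry), 1 per condition. The authors aligned reads to GRCm38 (mm10) and deposited UMI counts per gene and cell made with Cell Ranger 7.0.1. The PBS file held 7671 barcodes and 51146169 UMIs and the CFA file 5709 barcodes and 53517206 UMIs. Barcodes needed 500 genes and no more than 10% mitochondrial UMIs, the limits of the study, and here also no more than 1% hemoglobin UMIs.

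The libraries were normalized with sctransform 0.4.2, integrated in Seurat 5.3.0 over 3000 genes and clustered from 200 principal components at resolution 1.5, with the antagonists left out. A cluster was named when at least 3 markers of a list were detected in at least 25% of its cells and were at least 2-fold higher than elsewhere. This naming rule was changed once, with the first names in view, and the antagonists and gene lists were chosen with earlier results of these data known. UMIs were summed per class and divided by the class total. Ratios carry exact conditional 95% intervals. Genes with at least 50 UMIs over both libraries in a class were called at 2-fold. A group with 0 UMIs was read at a floor of 3 counts. Shares were also computed after thinning cells to 1000 or 2000 UMIs. Scrublet, as run in scanpy 1.11.5, marked 21 PBS and 2 CFA cells as doublets, which was too few to rely on, so the main values keep all cells and an alternative left out the 5% of cells with the highest scores (133 and 201 cells). Similar genes were ranked over the 5052 genes that reached 100 CPM in a class of each library. The other Wnt genes named with values were those of at least 50 CPM in fibroblast-like cells, unless stated. The interval and calling steps were tested on simulated data. One Schwann-like cluster is not reported here on its own, and its cells are counted in the Schwann-like class.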

Additional observations from a re-analysis of the deposited data

Results flagged for a closer look

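The CFA to PBS ratio of 4 antagonists pointed in opposite directions in different cell classes, with both counting intervals away from 1. With 1 library per condition the difference between classes was not tested. *Sfrp1* had a ratio of 2.59 in *Col2a1* *Snorc* chondrocyte-like cells and of 0.696 in the *Angptl1* *Cilp* fibroblast-like cluster. Over both chondrocyte-like clusters its ratio ran from 0.0602 to 4.02 among the alternatives, so that direction did not hold throughout. *Sfrp4* had a ratio of 2.66 in mural-like cells and of 0.517 in the *Angptl1* *Cilp* fibroblast-like cluster. *Frzb* had a ratio of 2.58 in *Col2a1* *Snorc* chondrocyte-like cells and of 0.577 in Schwann-like cells. Over both chondrocyte-like clusters the *Frzb* ratio ran from 0.687 to 3.32 among the alternatives. *Dkk3* had a ratio of 2.47 in the *Pi16* adventitial fibroblast-like cluster, but 1.26 there at resolution 0.8. Over both chondrocyte-like clusters it was 0.768. Of these the *Col2a1* *Snorc* cluster, the one with cells of both libraries, had 0.932 with an interval that includes 1.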

How the results depend on the processing

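In fibroblast-like cells the ratios of *Sfrp2* and *Dkk2* stayed under 0.5, and those of *Sfrp1*, *Sfrp4* and *Dkk3* between 1 and 2, under each of 11 alternatives, of which equal weight of the clusters and leaving out the highest cell of each library were chosen after seeing the data. With at least 1000 genes per cell the ratios were 1.35 for *Sfrp1*, 0.409 for *Sfrp2*, 1.505 for *Sfrp4*, 0.450 for *Dkk2* and 1.13 for *Dkk3*. *Sfrp2* was 0.351 without the hemoglobin limit, 0.353 with the antagonists kept in the clustered counts, 0.360 with each cell classed on its own and 0.419 as a mean over cells. *Sfrp1* was 1.27 with the antagonists kept, 1.10 with each cell classed on its own, 1.04 as a mean over cells and 1.03 with equal weight of the clusters. *Sfrp4* was 1.17 with each cell classed on its own and 1.02 with equal weight. Among ratios that had passed 2-fold, the direction changed in 8 cases, all in skeletal classes, while ratios nearer to 1 crossed it in further classes. *Wif1* in chondrocyte-like cells was 1.28 without the hemoglobin limit, 1.07 with at least 1000 genes and 1.07 with the antagonists kept. Its PBS level was 250, 299 and 299 CPM in these settings against 935 CPM in the main one, while the CFA level was 320 to 321 CPM. *Sfrp1* in chondrocyte-like cells was 0.287 with log-normalized counts and 0.0602 with each cell classed on its own. In osteoblast- or osteocyte-like cells *Wif1* was 1.21 and *Sfrp4* 3.25 without the hemoglobin limit, and *Sfrp4* was 1.04 with each cell classed on its own. The cause was not tested. No paired analysis was possible because each condition has 1 library.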
